A study of Oryza sativa Japonica Group with 6 samples.

Results

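LSI1, LSI2 and LSI6 are the silicon transporter genes of rice examined here. The rule that picks them lists their locus identifiers and uses no measured value, although it was drawn up with earlier results of these data known. They are 3 of the 31010 genes listed in the deposited table. All 3 were among the 23166 genes that reached a mean of 10 normalized counts and were tested. RNA-seq was done on root tips about 0.8 cm long from 7-day seedlings of Oryza sativa Japonica group. One group was the wild type cultivar ZH11 and the other was plt345, a mutant in PLT3, PLT4 and PLT5 together, with 3 libraries each. Seedlings of both groups were grown on Murashige and Skoog medium with 14 h of light at 28 °C and 10 h of dark at 24 °C, without treatment, and silicon supply is not given in the labels. PLT3, PLT4 and PLT5 belong to the PLETHORA family of transcription factors, which maintain root meristems. The labels do not give the mutant alleles, the number of independent lines, or whether libraries came from separate batches of plants. The spread behind each p-value is therefore that among the libraries at hand and may be technical.

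Rice takes up silicon as silicic acid and deposits it as silica in the shoot, where it strengthens tissue and protects against pests and drought. LSI1 is an aquaporin of the NIP subfamily (Nodulin 26-like Intrinsic Protein) that lets silicic acid into exodermis and endodermis cells of the root on their outer face. LSI2 is an efflux transporter of an unrelated anion transporter type on the inner face of the same cells, so that the pair moves silicon across the Casparian strips toward the stele. LSI6 is a close relative of LSI1, known in rice from the root tip and from xylem parenchyma of leaves and nodes, where it unloads silicon from the xylem. LSI1 and LSI2 are also the route by which rice roots take up arsenite.

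Reads counted on genes numbered 21013147 to 21309371 per wild type library and 20759896 to 21035771 per plt345 library. Transcripts at the loci given for the mutated genes, which rest on nomenclature alone, ranged in normalized counts from 572.8 to 583.7 in wild type and from 555.8 to 595.2 in plt345 for PLT3. For PLT4 the ranges were 248.5 to 287.8 and 218.2 to 244.2, and for PLT5 they were 512.6 to 564.4 and 1259 to 1277. Transcript levels are no check of the genotype here, since many mutations leave the transcript in place. Values below are counts divided by the authors' size factor for each library (normalized counts), as mean ± SD over 3 libraries. Each log2 fold change sets plt345 against wild type, was taken from log2(value + 1), and has its standard error (SE) from a limma fit across all tested genes, and adjusted p-values are Benjamini-Hochberg values over those genes. A call means an adjusted p under 0.05.

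LSI1 and LSI2 rose about 4-fold to 5-fold in plt345 root tips, while LSI6 fell to 0.666 of its wild type level. In each case the 3 libraries of one genotype lay apart from the 3 of the other. Calls were common in this comparison, with 34.0% of tested genes higher and 34.0% lower, and 71.0% showed no overlap between genotypes, so that a call by itself does not set a gene apart here. Of these calls 50.1% were higher, or 60.9% when values were scaled by library totals, under which all 3 silicon transporter genes kept their direction and call. Increases of at least 2-fold, reached by LSI1 and LSI2, were found in 13.8% of tested genes.

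LSI1 (LOC_Os02g51110, chromosome 2), the influx channel, was at 1129.8, 1123 and 1143 normalized counts in wild type replicates 1, 2 and 3. In plt345 replicates 1, 2 and 3 it was at 4372, 4561 and 4318. The highest wild type library was thus well below the lowest plt345 library, and the ratio between any plt345 and any wild type library was at least 3.78 and at most 4.06. The means were 1132 ± 10.0 and 4417 ± 128 (SD, n = 3 each), a 3.90-fold rise. The log2 fold change was 1.96 (SE 0.03, 95% interval 1.89 to 2.04, limma adjusted p = 1.271e-24).

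These values rest on 3326 LSI1 reads summed over wild type and 13612 summed over plt345. The wild type libraries varied by 0.888% of their mean, less than the 3.0% that counting of reads alone would give on average, and the plt345 libraries by 2.89% against 1.48%. Among all tested genes, 6.66% had a log2 fold change as high as that of LSI1 or higher. Among the 5813 tested genes whose wild type mean lay within 2-fold of that of LSI1, 15 did, LSI1 included. Of the 1543 tested genes with a log2 fold change at least as high as that of LSI1, itself included, 1535 had a lower wild type mean. The plot of all tested genes shows this. The limit on the mean covers all 6 libraries, so genes with a wild type mean under 10 were tested only if high in plt345. Both this count and the 6.66% are therefore partly fixed by that limit.

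LSI2 (LOC_Os03g01700, chromosome 3), the efflux partner of LSI1, was at 549.1, 522.6 and 547.4 normalized counts in wild type replicates 1, 2 and 3. In plt345 it was at 2599, 2521 and 2514. The groups did not overlap, and the ratio between any plt345 and any wild type library lay between 4.58 and 4.97. The means were 539.7 ± 14.8 and 2545 ± 47.2, a 4.72-fold rise, from 1586 reads summed over wild type and 7843 over plt345. The log2 fold change was 2.24 (SE 0.04, 95% interval 2.15 to 2.32, limma adjusted p = 2.983e-24). As with LSI1, few genes at its level rose as far. Of 6967 tested genes with a wild type mean within 2-fold of that of LSI2, 21 had a log2 fold change as high or higher, LSI2 included. Over all tested genes the share was 5.52%, which again includes genes tested only because they were high in plt345.

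LSI6 (LOC_Os06g12310, chromosome 6), the relative of LSI1 known from root tips, moved the other way. It was at 1835, 1619 and 1693 normalized counts in wild type replicates 1, 2 and 3, and at 1134, 1124 and 1171 in plt345. The highest plt345 library stood at 0.723 of the lowest wild type library. The means were 1716 ± 109.5 and 1143 ± 24.7, from 5042 reads summed over wild type and 3524 over plt345. The log2 fold change was -0.58 (SE 0.04, 95% interval -0.67 to -0.49, limma adjusted p = 1.068e-11). Wild type libraries differed more for LSI6 than for the other two genes, by 6.38% of the mean against 2.44% from counting alone, with replicate 1 the highest. The fall was moderate among all tested genes, 8.81% of which had a log2 fold change as low or lower. Of the 4492 tested genes with a wild type mean within 2-fold of that of LSI6, 7.68% did.

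**Figure D1:**
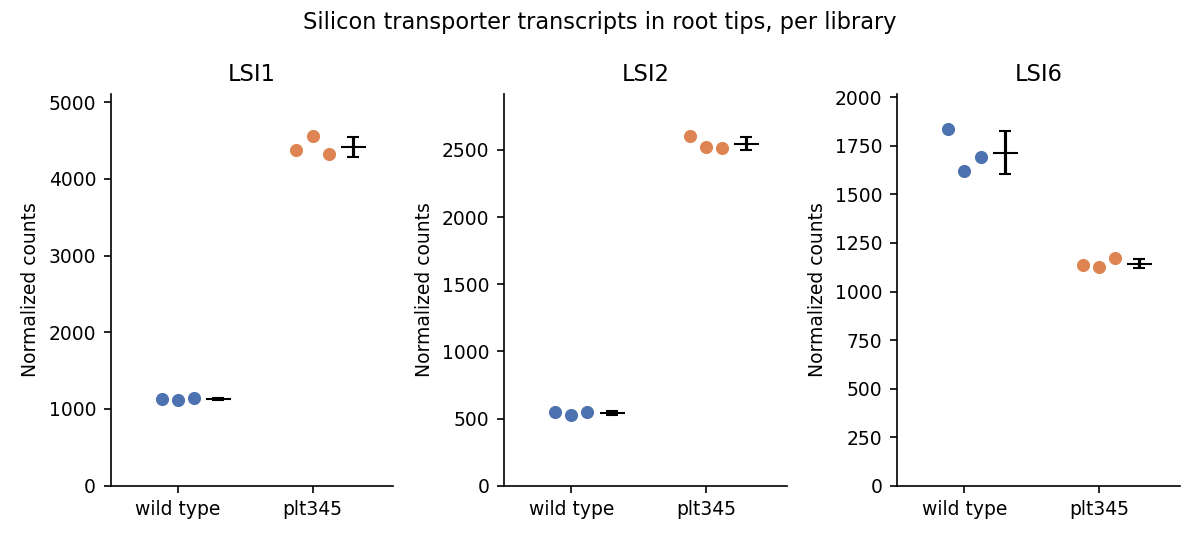
Normalized counts of LSI1, LSI2 and LSI6 (vertical axes, each starting at 0) in the 3 wild type and 3 plt345 libraries (points, in replicate order), with the mean and SD beside them. LSI1 and LSI2 are higher in each plt345 library than in any wild type library, at 4318 or more against 1143 or less for LSI1, and LSI6 is lower.

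**Figure D2:**
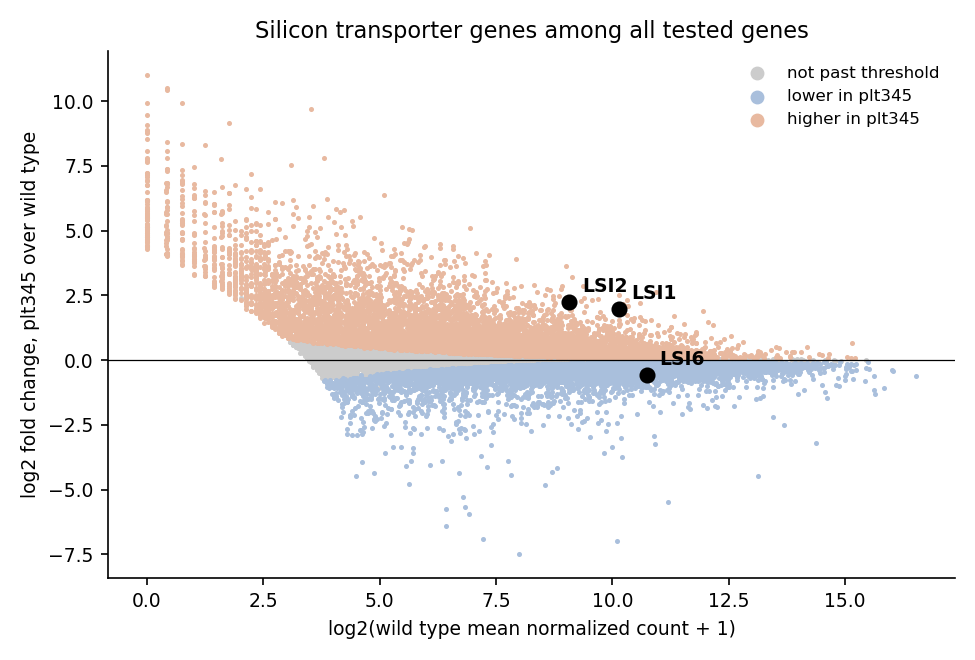
Each of the 23166 tested genes by its wild type mean, as log2(normalized count + 1), and its log2 fold change (plt345 against wild type), coloured by call, with the 3 silicon transporter genes in black. LSI1 at 1.96 and LSI2 at 2.24 lie near the upper edge of genes with similar wild type counts, and LSI6 at -0.58 lies within the bulk of the genes called lower.

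The balance among the 3 transcripts therefore differed between the genotypes. Ratios within a library do not depend on the scaling between libraries. They were taken between counts that are not corrected for transcript length, so that their change can be read but not which transcript was more abundant. The ratio of LSI6 to LSI1 was 1.62, 1.44 and 1.48 in wild type replicates 1, 2 and 3, and 0.259, 0.246 and 0.271 in plt345. The ratio fell 5.84-fold (log2 change -2.55), and the genotypes lay far apart. The ratio of LSI6 to LSI2 was 3.34, 3.10 and 3.09 in wild type and 0.436, 0.446 and 0.466 in plt345, a 7.06-fold fall (log2 change -2.82).

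Between the transporters of the uptake pair the shift was small. The ratio of LSI2 to LSI1 was 0.486, 0.465 and 0.479 in wild type replicates 1, 2 and 3, and 0.594, 0.553 and 0.582 in plt345. It was higher in each plt345 library than in any wild type library, with means of 0.477 ± 0.0105 and 0.577 ± 0.0215 (SD, n = 3 each), a 1.21-fold difference. A two-sided exact permutation test of 3 libraries against 3 gave p = 0.1 for each of the 3 ratios, the smallest value that this test can give with 3 libraries a group, and 0.1 again after adjustment over the 3 pairs. By this test none of the ratios could pass 0.05, so the shifts of all 3 ratios, those of LSI6 included, are given as a description.

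**Figure D3:**
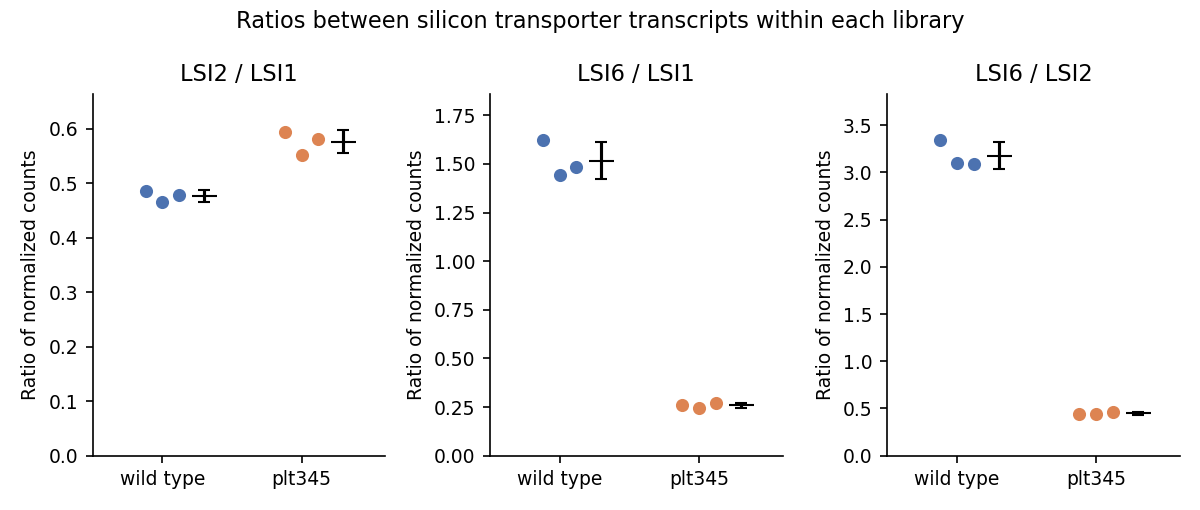
Ratios of normalized counts between the silicon transporter genes within each library (vertical axes, starting at 0) for 3 wild type and 3 plt345 libraries (points), with mean and SD. Both ratios of LSI6 fell from above 1.4 to below 0.47, and the ratio of LSI2 to LSI1 moved from between 0.465 and 0.486 to between 0.553 and 0.594.

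Genes whose profile over the 6 libraries came nearest to each silicon transporter gene were sought among the other 18854 tested genes with a mean of at least 50. The measure was the Euclidean distance between log2(value + 1) values centred on each gene's wild type mean, and it is dominated by the difference between the 2 genotypes. Nearest to LSI1 was LOC_Os08g14109, at a distance of 0.103 with a log2 fold change of 1.99. Nearest to LSI2 was LOC_Os01g72160 at 0.0740 (log2 fold change 2.23), and nearest to LSI6 was LOC_Os03g06670 at 0.0638 (log2 fold change -0.59). The sources used here give these loci no name. LSI2 itself ranked 226th among the genes nearest to LSI1, at a distance of 0.480, and LSI6 was 4.41 from LSI1 and 4.88 from LSI2.

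Another locus, LOC_Os10g39980, had been entered in the silicon transporter list from rice nomenclature, but no symbol in the reference table ties it to that list. It was at 125.1, 101.3 and 102.3 normalized counts in wild type replicates 1, 2 and 3, and at 1699, 1631 and 1744 in plt345. This was the widest change of the list, a 15.4-fold rise from 109.5 ± 13.5 to 1691.5 ± 57.0. The log2 fold change was 3.94 (SE 0.07, limma adjusted p = 2.031e-24). Of all tested genes 1.78% rose as far or further.

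Other genes of the NIP subfamily, which as a group carry small uncharged molecules such as boric acid, glycerol and arsenite, were higher wherever they could be tested. Of 8 listed loci 5 were tested, and all 5 were called higher, beside 34.0% of all tested genes. Their median log2 fold change was 1.54, which is the value of NIP4;1, against -0.01 over all tested genes. The other 3 loci had at most 10 reads over the libraries of either genotype. The most read of them had 10 in wild type and 3 in plt345. Passing the limit on the mean can depend on being high in plt345, as for NIP1;1 and NIP4;1 (wild type means 0.682 and 9.52). Neither the count nor the median therefore speaks for the subfamily as a whole. NIP3;1 (LOC_Os10g36924), known in rice as a boric acid channel, was the most heavily read, at 6638, 6507 and 6761 normalized counts in wild type and 10001.5, 9733 and 10517 in plt345. Its log2 fold change was 0.60 (SE 0.03, limma adjusted p = 3.152e-15), a 1.52-fold rise.

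The remaining tested NIP genes with a checked symbol started from low counts. NIP1;1 (LOC_Os02g13870), a NIP gene whose product can carry arsenite in rice, had 2 reads in wild type, both in replicate 3, and 331 summed over plt345. In plt345 it was at 102, 107.6 and 112.5 normalized counts. The ratio of reads, scaled by the authors' size factors, was 158. Its 95% exact binomial interval of 43.3 to 1308.5 covers counting error only. NIP1;2 (LOC_Os01g10600) rose 6.92-fold, from 12.9 ± 3.15 to 89.6 ± 0.408 (limma adjusted p = 1.538e-11). NIP4;1 (LOC_Os01g02190) rose 3.07-fold, from 9.52 ± 3.09 to 29.2 ± 6.63 (limma adjusted p = 6.352e-05). LSI1 and LSI6 are similar in sequence to each other and to these genes, and whether they share reads was not checked here. The strand setting is unknown, so that antisense reads cannot be told apart from those of each gene.

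Mineral transporter loci listed for the exodermis and endodermis were also called higher, 1 of them by only 0.08 in log2 fold change. All 3 listed loci were called higher, beside 34.0% of all tested genes, and the median of their log2 fold changes was 1.61. NRAMP5 (LOC_Os07g15370), the uptake transporter for manganese and cadmium on the outer face of the same cell layers, was at 160.7, 133 and 164.7 normalized counts in wild type replicates 1, 2 and 3, and at 428.5, 471.6 and 507.7 in plt345. It rose 3.07-fold (log2 fold change 1.61, SE 0.09, limma adjusted p = 1.378e-14). For the other 2 loci the reference table holds no symbol, so their place in this list rests on nomenclature alone. Their log2 fold changes were 1.92 and 0.08, and the lower of these lost its call without plt345 replicate 3 (adjusted p = 0.055).

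The list of arsenic transport and detoxification genes moved in both directions. Of 8 tested loci 5 were higher and 2 lower, and the median log2 fold change was 0.28. PT8 (LOC_Os10g30790), a phosphate transporter that also admits arsenate, rose 1.77-fold, from 2766 ± 107 to 4890 ± 128 normalized counts (log2 fold change 0.82, limma adjusted p = 4.711e-17). PT1 (LOC_Os03g05620), of the same family, rose 1.26-fold, from 338.9 ± 27.1 to 427.7 ± 10.0 (limma adjusted p = 9.612e-05). The symbols of the other 6 loci are not held by the reference table, and their log2 fold changes ran from -1.75 to 3.08. Over the 4 lists without LSI1, LSI2 and LSI6, 14 of 17 tested loci were higher and 2 lower, and the median log2 fold change was 0.62. Over all tested genes 34.0% were called higher and 34.0% lower. The count and the median include NIP1;1 and NIP4;1, whose wild type means of 0.682 and 9.52 let them be tested only through plt345. Both are given as a description of loci chosen with earlier results known.

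Marker genes of the tissue moved between the genotypes as well. In bulk RNA from root tips, a change in the number of cells of a type and a change in RNA per cell cannot be told apart. CASP1 (LOC_Os04g58760), which builds the Casparian strip of the endodermis, fell where LSI1 and LSI2 rose. It was at 2180.3, 2083 and 2213 normalized counts in wild type and at 1651, 1539 and 1541 in plt345. Its log2 fold change was -0.45 (SE 0.04, limma adjusted p = 1.395e-10). Of the other 4 genes of the endodermis and ground tissue list, SHR2, SCR1 and SCR2 were called higher and SHR1 was not called. Among all tested genes 34.0% were called higher and 34.0% lower, so these calls alone do not set the list apart. SCR1 had a log2 fold change of 0.27 and lost its call in DESeq2 (adjusted p = 0.0685) and without plt345 replicate 1 (adjusted p = 0.0643). The median log2 fold change over the 5 loci of this list was 0.27. Its summed level ran from 2864 to 3019 in wild type and from 2479 to 2649 in plt345. Most of that sum was CASP1, with means of 2159 and 1577, so the lower sum reflects CASP1 and not the list as a whole.

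Genes of dividing cells were lower in plt345, and those of xylem secondary walls higher. All 11 loci of the dividing cell list were called lower, beside 34.0% of all tested genes. They include the locus whose symbol the reference table contradicted, and the 10 with a matched symbol were all called lower too. The median log2 fold change was -0.36 with or without that locus. The summed level of the 11 ran from 14586 to 14774 in wild type and from 11308 to 11485 in plt345. PCNA, the sliding clamp of DNA replication, had a log2 fold change of -0.40. The log2 fold change of LSI6, -0.58, lay just below the lowest of this list, that of the mitotic cyclin gene CYCB2;2 at -0.56, a difference that was not tested. The 3 cellulose synthase genes of secondary walls, CESA4, CESA7 and CESA9, rose with a median log2 fold change of 0.82, and their sum went from between 2247 and 2307 to between 3873 and 3904. The part of these shifts in the values of LSI1, LSI2 and LSI6 was not tested.

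Root hair genes were read in both genotypes, and the quiescent centre gene and leaf genes at far lower counts. QHB, a gene of the quiescent centre, was at 18.4 to 27.5 normalized counts in wild type and 85.6 to 116.7 in plt345. Its log2 fold change was 2.16 (SE 0.19, limma adjusted p = 1.7e-10), from 66 reads summed over wild type. This lay between the values of LSI1 and LSI2, an order that was not tested. Of 3 root hair loci 2 were called higher, beside 34.0% of all tested genes. Of the 2 with a matched symbol, 1 was called higher. The summed level of the 3 was 2356 to 2612 in wild type and 2694 to 2842 in plt345. CSLD1, a root hair cellulose synthase-like gene, was not called (log2 fold change 0.03, limma adjusted p = 0.574). The 5 leaf marker loci, of RuBisCO small subunits and chlorophyll binding proteins, summed to between 61.4 and 68.1 in wild type and between 19.6 and 34.6 in plt345. Of these, 1 RuBisCO small subunit locus had no read in wild type, 2 were tested, and CAB1R was called lower. A single locus entered as a general root marker had 0 reads in wild type and 4 in plt345. Its symbol is not in the reference table, so nothing was read from it.

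**Figure D4:**
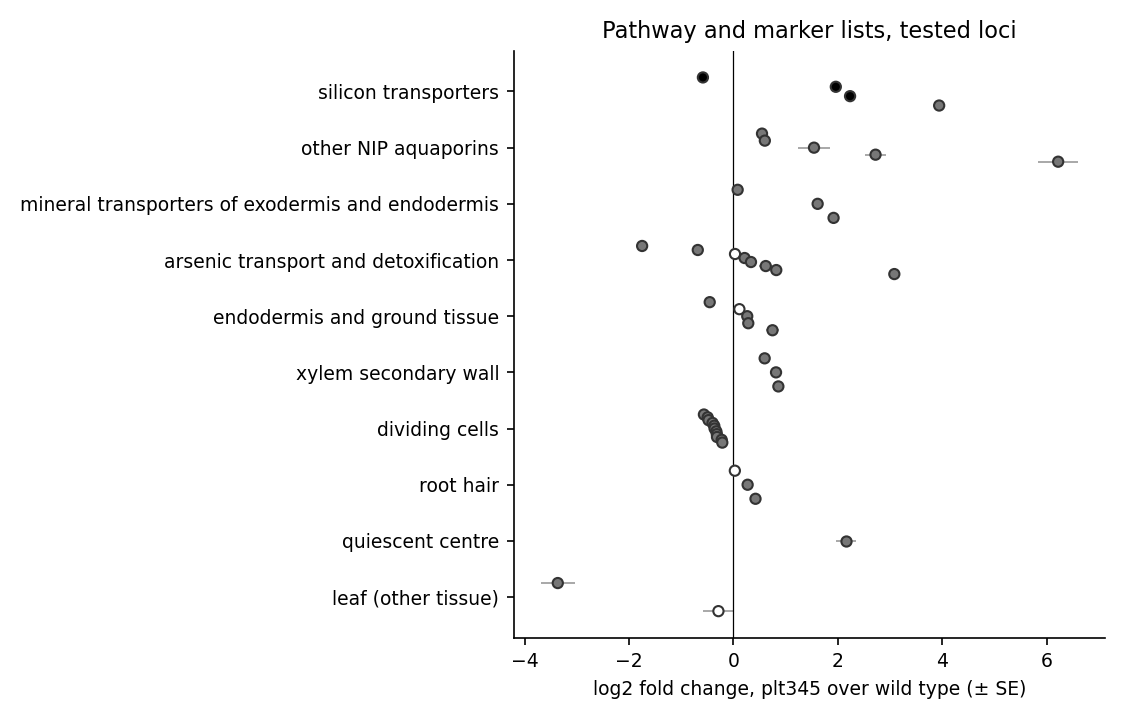
Log2 fold changes (plt345 against wild type) with their SE (horizontal axis) for the tested loci of each pathway and marker list (rows). LSI1, LSI2 and LSI6 are black, other loci past the threshold grey and loci short of it white. Of the silicon transporter list 3 loci lie at 1.96 or above and LSI6 lies at -0.58, and all dividing cell loci lie below 0.

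Loci next to each silicon transporter gene were read as local context. These were the 5 listed loci before and the 5 after it in identifier order, which follows the chromosome. For the counts of calls below, 34.0% of all tested genes were called higher and 34.0% lower. Around LSI2 none of the 7 tested neighbours changed 2-fold. They had log2 fold changes from -0.81 to 0.81, with 3 called higher and 4 lower, beside 2.24 for LSI2. The locus directly after LSI2 was called lower, at -0.42. Around LSI1, 7 of 9 tested neighbours were called higher and 1 lower, and the median log2 fold change was 0.39. Of these, 1 rose at least 2-fold, the second locus after LSI1, from 2.72 to 49.7 mean normalized counts with 8 and 153 reads. With a wild type mean under 10 it was tested only because it was high in plt345, so its rise was fixed by the limit on the mean. The locus directly before LSI1 was at 0.20 and the one directly after it at 0.58.

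Around LSI6, which fell, 5 of 9 tested neighbours were called higher and 2 lower. Of these, 3 rose at least 2-fold, with log2 fold changes of 2.70, 3.304 and 1.17. They had few reads in wild type, 8, 6 and 40 over the 3 libraries, against 69, 86 and 100 in plt345. For 2 of them the wild type mean was under 10, so that they too were tested only through plt345 and had to be higher. The directly preceding locus was among them. The 2 neighbours called lower, at -0.67 and -0.53, stood beside -0.58 for LSI6.

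**Figure D5:**
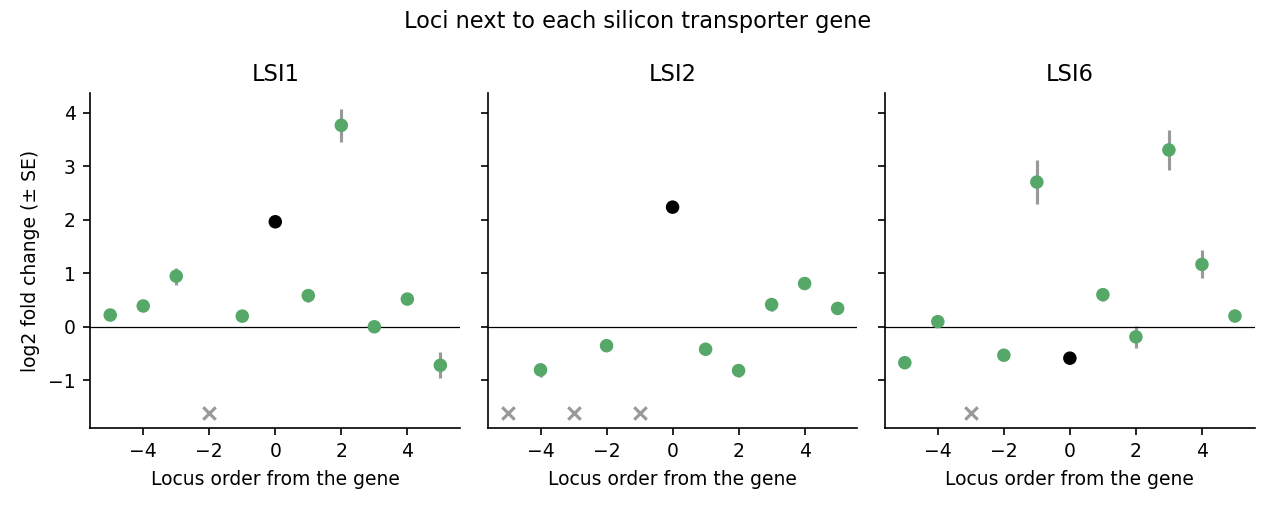
Log2 fold changes (plt345 against wild type) with their SE (vertical axis) for LSI1, LSI2 and LSI6 (black, at 0) and the 5 listed loci on either side in identifier order (green). Grey crosses mark loci too low to test. LSI2 at 2.24 stands above its tested neighbours, which reach 0.81 at most, and the second locus after LSI1, with few reads in wild type, lies above LSI1.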

How the data were processed

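RNA-seq was done on 6 root tip libraries, paired-end at 150 bp on a BGISEQ-500 per the labels. HISAT2, featureCounts 2.0.0 and DESeq2 1.38.3 were used per the submitters' processing notes. No source used here states the genome build, parameters or strand setting. The authors deposited one table with a signal per library (counts divided by size factors) and their mean. Per the file headers it also holds log2 fold changes, a score (the Wald statistic) and p-values, from DESeq2. Within 0.01 of a read, 100% of values were whole reads, which were recovered for edgeR 4.0.16 and DESeq2 1.42.0 as alternatives.

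Genes with a mean of at least 10 were tested in limma 3.58.1 (trend, two-sided, R 4.3.3) on log2(value + 1), which understates changes of low genes. There was no block. Pairs of libraries differed by more than sampling noise within genotypes (chi-square per gene 1.44 to 2.12), so none was treated as a repeat.

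The members and lists were chosen with earlier results of these data known. Named genes are the 3 members, tested pathway list genes, the nearest profile of each member and neighbours. The marker genes named and the 2-fold band of wild type levels were chosen after values were seen. The table pairs no identifier with a name. Symbols were entered from nomenclature and checked against the reference table (assembly ASM3414082v1). A pair matched where the table puts that symbol, on the chromosome of the locus, no more than 1 Mb from where interpolation between the other pairs puts the locus. Of 52 list loci 37 matched, LSI1, LSI2 and LSI6 among them, 14 symbols were not found, and 1 was contradicted and is not named. NIP1;2 and NIP4;1 had been entered at each other's loci and were exchanged after this check. A match makes a pair plausible and does not prove it. No transcript lengths or sequences were used here, so levels of different genes were not compared per length, and no promoter was searched.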

Additional observations from a re-analysis of the deposited data

How the results depend on the processing

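LSI1, LSI2 and LSI6 kept their direction and stayed past the threshold under all 15 alternatives. These were pseudocounts of 0.5 and 5, no filter or a mean of at least 50, library totals as scaling, edgeR, DESeq2, the authors' deposited values, the replicate block, and leaving out each library. Log2 fold changes ran from 1.94 to 2.05 for LSI1, from 2.21 to 2.32 for LSI2 and from -0.62 to -0.50 for LSI6, the last with library totals. In the limma fit with the replicate block they were 1.96, 2.24 and -0.58. DESeq2 on the recovered reads repeated the authors' deposited fold changes for these genes, and both called 14494 genes. These 2 alternatives are therefore not separate checks. Same-numbered libraries correlated at 0.070, 0.051 and 0.026 in their deviations from the genotype means, each the highest for its library but under 0.1, so the numbers were not taken as pairs. The block called 15913 genes in place of 15751, edgeR on recovered reads 15901 and DESeq2 14494. Ratio changes kept their direction under their 9 alternatives, under exact permutation and sign-flip tests that cannot give a p under 0.1 with 3 libraries a group. The count of list loci called, 41 with LSI1, LSI2 and LSI6 included, ran from 39 to 44. How many list loci were tested changes with the limit on the mean, so this range is not one of calls alone. Among all tested genes 34.0% were called higher and 34.0% lower in the main fit. With library totals 60.9% of calls were higher, against 50.1%, a median shift of 0.0873 in log2 fold change. CSLD1 ran from -0.0076 to 0.068 with single libraries left out, changing sign without plt345 replicate 2 (adjusted p = 0.898), and was called with library totals (0.12), as were SHR1 (0.20) and 1 arsenic list locus (0.12).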
